A study of Mus musculus with 4 samples.

Results

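Lin28a, L1td1 and Trim71 are 3 RNA-binding proteins of early stem cells. Their messengers were followed in mouse embryonic stem cells of the J1 line, grown here in serum with the cytokine LIF. Chosen by gene symbol among the 13831 symbols of a table of single RNA reads, all 3 genes had reads in each library. The groups were wild-type J1 cells (WT) and J1 cells knocked out for Mov10 (KO), an RNA helicase. Both groups had the same background and medium, no treatment was recorded, and each was sequenced as 2 libraries, numbered 1 and 2 as WT 1 and WT 2 and as KO 1 and KO 2; paired values below follow that order. Poly(A) RNA was read directly on nanopores, where a native strand is threaded through a pore and its tail length is estimated in nucleotides (nt) on that same molecule. The labels do not say whether libraries came from separate cultures or whether the knockout is a single clone, so p-values measure only the spread between these libraries.

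Lin28a binds the precursors of the let-7 microRNAs and recruits uridylating enzymes to them, which blocks let-7 maturation in undifferentiated cells. It also binds messenger RNAs directly. Trim71, also called Lin41, is itself a classic let-7 target: it carries a RING domain, which can act as a ubiquitin ligase, and NHL repeats, which bind messenger RNAs such as that of Cdkn1a. L1td1 is derived from the open reading frame 1 protein of a LINE-1 retrotransposon and is found in RNA granules together with Lin28a. All 3 genes are expressed in pluripotent cells and decline on differentiation.

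The let-7 family links Lin28a, which restrains it, with Trim71, which it represses. Mature let-7 molecules carry no poly(A) tail and were not measured here. The let-7 targets used later were listed by gene symbol, and their sequences were not searched for let-7 matches. The let-7 sequences, from the RefSeq annotation of GRCm38.p6, are shown for the shared seed (bases 2 to 8, in capitals). Of 11 mature sequences of the family in that table, leaving out those named 3p, 10 shared the seed GAGGUAG, and 3 of these are printed.
mmu-let-7a-5p: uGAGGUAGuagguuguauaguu
mmu-let-7g-5p: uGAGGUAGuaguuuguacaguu
mmu-miR-98-5p: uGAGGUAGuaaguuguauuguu

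The 250 bases before the annotated start of each gene (RefSeq, GRCm38.p6, 5′ to 3′ on the gene's strand) are shown because all 3 genes had a higher mean read number in KO. Capitals mark matches to a GC box (GGGCGG), a Sox motif (CATTGT), an octamer (ATGCNAAT) or a TATA box (TATAAA), searched on both strands. The Lin28a sequence lies at chr4:134018817-134019066 on the minus strand, that of L1td1 at chr4:98726504-98726753 on the plus strand, and that of Trim71 at chr9:114564370-114564619 on the minus strand.
Lin28a: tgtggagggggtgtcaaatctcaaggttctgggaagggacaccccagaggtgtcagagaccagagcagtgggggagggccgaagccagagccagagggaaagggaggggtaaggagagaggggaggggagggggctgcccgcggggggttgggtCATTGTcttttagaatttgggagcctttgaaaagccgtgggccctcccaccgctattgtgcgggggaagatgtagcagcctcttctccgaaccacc
L1td1: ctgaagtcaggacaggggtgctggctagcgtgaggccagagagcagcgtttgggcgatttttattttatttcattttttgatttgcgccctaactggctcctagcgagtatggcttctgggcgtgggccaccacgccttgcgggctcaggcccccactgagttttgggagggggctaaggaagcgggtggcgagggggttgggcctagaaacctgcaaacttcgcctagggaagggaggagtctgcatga
Trim71: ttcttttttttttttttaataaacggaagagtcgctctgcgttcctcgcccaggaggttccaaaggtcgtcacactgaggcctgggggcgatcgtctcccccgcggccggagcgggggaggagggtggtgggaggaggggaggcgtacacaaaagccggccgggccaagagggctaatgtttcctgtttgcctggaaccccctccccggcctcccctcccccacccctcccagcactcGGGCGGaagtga
Lin28a held 1 Sox motif, 96 to 91 bases before the start, and Trim71 held 1 GC box, 12 to 7 bases before it. L1td1 held none of the 4. No motif overlapped another. Among 32851 promoters of the same length, 32.7% held the GC box, 10.7% the Sox motif, 2.86% the octamer and 12.4% the TATA box. The GC content was 61.2% for Lin28a, 57.6% for L1td1 and 62.8% for Trim71, against a median of 52.4% over all these promoters.

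Reads with a tail length above 0 numbered from 351133 to 683239 per library. Mov10 itself had 26 and 14 reads in WT 1 and WT 2, and 0 and 1 reads in KO 1 and KO 2. The stem cell label was checked on 17 pluripotency genes, of which 16 or 17 had reads in each library, and on 8 fibroblast genes, of which only 2 occurred in the table, with a summed level between 8.54 and 13.95 reads per 1000000 reads (RPM); the collagen genes Col1a1, Col1a2 and Col3a1 had no read.

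The members were covered by 676 reads in all. Lin28a (ENSMUSG00000050966.9) had 122 reads, L1td1 (ENSMUSG00000087166.9) had 436 and Trim71 (ENSMUSG00000079259.2) had 118. Each gene's reads lay on a single transcript in the deposited assignment, and no other symbol was assigned to that transcript. Isoforms and alternative 3′ ends were not tested.

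All 3 members had more reads in both KO libraries than in either WT library; relative to the total reads of each library, this held for Lin28a alone. Lin28a had 11 reads in WT 1 and 13 in WT 2, against 56 in KO 1 and 42 in KO 2. As a level this was 25.0 RPM in WT 1 (exact 95% binomial interval 12.5 to 44.8) and 37.0 RPM in WT 2 (19.7 to 63.3). It was 82.0 RPM in KO 1 (61.9 to 106.4) and 97.7 RPM in KO 2 (70.4 to 132.0). The genotypes did not overlap: the KO mean was 89.8 RPM ± 11.1 (SD, n = 2), against a WT mean of 31.0 RPM ± 8.48 (SD, n = 2). The interval of WT 2 reached slightly into that of KO 1; intervals cover counting error only.

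L1td1 was low in one WT library only. Its 34 reads in WT 1 gave 77.3 RPM (53.6 to 108.1) and its 93 reads in WT 2 gave 264.9 RPM (213.8 to 324.5). KO 1 had 167 reads, or 244.4 RPM (208.8 to 284.4), and KO 2 had 142 reads, or 330.2 RPM (278.2 to 389.2). WT 2 lay between the KO libraries, so the genotypes overlapped. The KO mean was 287.3 RPM ± 60.7 (SD, n = 2), against a WT mean of 171.1 RPM ± 132.6 (SD, n = 2).

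Trim71 showed the same arrangement with fewer reads. WT 1 had 4 reads, or 9.10 RPM (2.48 to 23.3), and WT 2 had 28 reads, or 79.7 RPM (53.0 to 115.2). KO 1 had 50 reads, or 73.2 RPM (54.3 to 96.5), and KO 2 had 36 reads, or 83.7 RPM (58.6 to 115.9). WT 1 stood alone, and the other 3 libraries lay within each other's intervals. Lin28b, the paralog of Lin28a, had 1 and 3 reads in WT 1 and WT 2. It had 3 and 1 reads in KO 1 and KO 2, too few to compare.

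**Figure D1:**
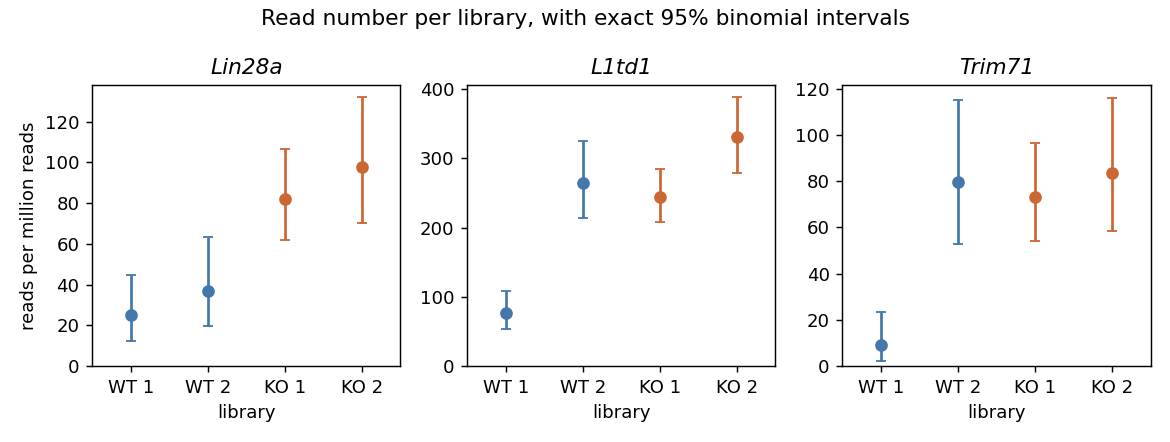
Read number of Lin28a, L1td1 and Trim71 in RPM (vertical axis, from 0) in each of the 4 libraries, with exact 95% binomial intervals as bars. Lin28a is higher in both KO libraries (82.0 and 97.7 RPM) than in both WT libraries (25.0 and 37.0 RPM), while L1td1 and Trim71 are low in WT 1 alone.

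Read number was tested across the 4815 genes that averaged 10 or more reads, by limma's voom with median-of-ratios scaling. No gene passed a Benjamini-Hochberg adjusted p of 0.05 (0% of genes called), and 498 genes had an unadjusted p under 0.05. Even Mov10, the gene knocked out, did not pass, with a log2 change of -5.09 ± 0.85 (SE) and the lowest p (limma, adjusted p = 0.0553). Not passing here therefore does not show that a gene was unchanged. None of the 3 members passed. The log2 change (KO against WT) was 1.40 ± 0.39 (SE) for Lin28a (limma, adjusted p = 0.180), which is 2.64-fold on this scale. It was 1.43 ± 0.56 (SE) for Trim71 (limma, adjusted p = 0.390) and 0.87 ± 0.37 (SE) for L1td1 (limma, adjusted p = 0.435). By unadjusted p the members ranked 57 (Lin28a), 252 (Trim71) and 326 (L1td1) among the tested genes. With the sign taken into account, these changes were higher than those of 98.4% (Lin28a), 98.6% (Trim71) and 93.4% (L1td1) of the genes tested, whose median was -0.01. In size alone they exceeded 97.7%, 97.9% and 89.4% of the genes in the same order. All 3 had an unadjusted p under 0.05 in the direction of KO, against 5.17% of all genes. The members were chosen with earlier results of these data known, so this count and these ranks are no test of them as a set. For L1td1 and Trim71 the count also rests on WT 1, without which their log2 changes were 0.05 and -0.07. Groups that did not overlap, with KO higher, occurred in 20% of all genes and in 1 of the 3 members, Lin28a. Poly(A) RNA was taken from bulk cultures, so fewer cells expressing a gene and less RNA per cell cannot be told apart.

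**Figure D2:**
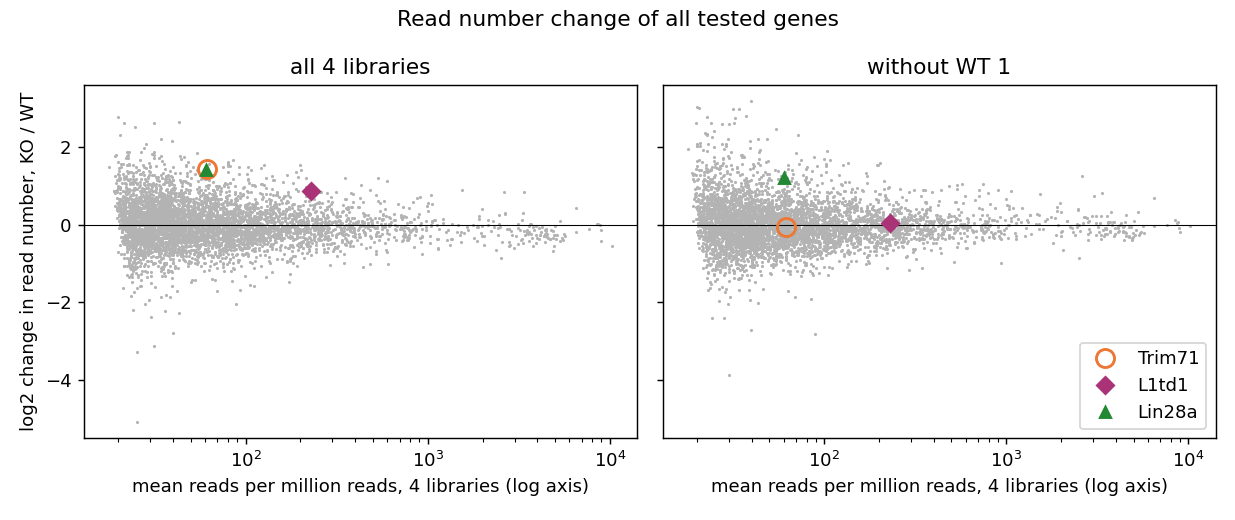
Log2 change in read number (KO against WT, vertical axis) against mean read number (log axis) for all tested genes in grey, with Lin28a, L1td1 and Trim71 marked, from all 4 libraries (left) and without WT 1 (right). Lin28a stays at 1.19 without WT 1, while L1td1 and Trim71 move to 0.05 and -0.07.

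Leaving out each library in turn separated Lin28a from the other members. The log2 change of Lin28a ranged from 1.19 (without WT 1) to 1.57 (without WT 2). It was positive in each of these fits. L1td1 had 0.05 without WT 1 but 1.64 without WT 2. Trim71 had -0.07 without WT 1 but 2.74 without WT 2. For L1td1 and Trim71, the size of the difference was decided by WT 1, and for Trim71 the sign also changed without it. Without WT 2 all 3 members passed the threshold (limma, adjusted p = 0.0332 for Lin28a, 0.000131 for L1td1 and 0.00108 for Trim71), in a fit in which 3.79% of 5086 genes were called higher in KO. Without WT 1 none of the 3 passed (limma, adjusted p = 0.253, 0.976 and 0.977), in a fit in which 1.21% of 4978 genes were called higher in KO. In both fits the lone WT library is assumed to vary like the KO pair.

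**Figure D3:**
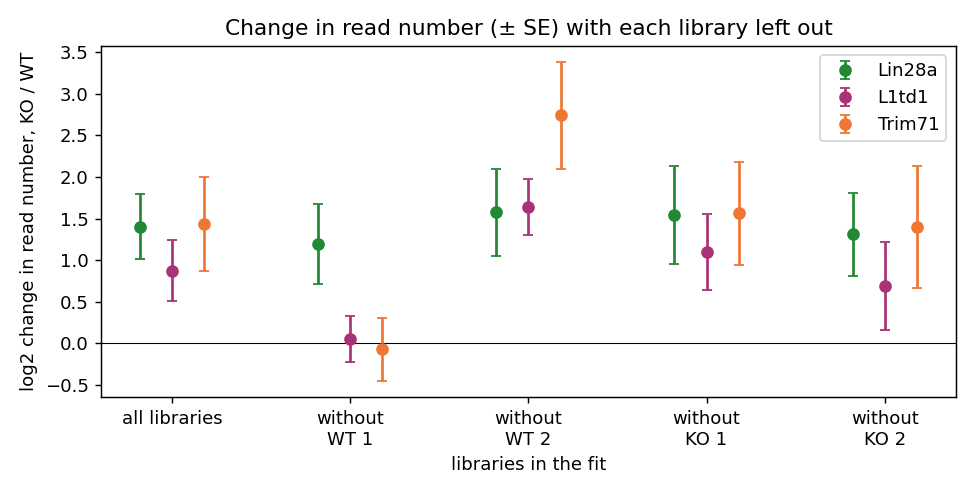
Log2 change in read number of Lin28a, L1td1 and Trim71 (KO against WT, points, with standard errors as bars) from the fit of all libraries and from fits that leave out 1 library each. Lin28a ranges from 1.19 to 1.57, L1td1 from 0.05 to 1.64 and Trim71 from -0.07 to 2.74.

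The gap between the WT replicates was then measured directly. On the scaled log2 read number, WT 1 was below WT 2 by a difference of -2.80 for Trim71, and 0.104% of the 4815 genes had a lower value. For L1td1 the difference was -1.58, with 2.53% of genes lower. For Lin28a it was -0.37, within the central range of all genes, whose 5th and 95th percentiles were -1.26 and 1.18. The KO replicates differed by -0.16 for Trim71, -0.40 for L1td1 and -0.22 for Lin28a, all within the range of all genes from -0.76 to 0.84.

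The table also carries the authors' deposited classes of genes by Mov10 binding and m6A, a methylated adenosine of messenger RNA. How the classes were made is not stated in the sources used here. L1td1 and Trim71 belonged to the Mov10 targets with m6A, and Lin28a to the Mov10 targets without m6A. Among tested genes, the targets with m6A were lower in WT 1 than in WT 2 in 62.4% of 906 genes, with a median log2 difference of -0.21. For targets without m6A the share was 50.8% of 1635 genes and the median -0.01, and for non-targets 41.5% of 1514 genes and 0.14. The median log2 change between genotypes in the class of L1td1 and Trim71 was 0.17 with all libraries and 0.01 without WT 1. In the class of Lin28a it was 0.01 and -0.01. The part of this class difference in the values of L1td1 and Trim71 was not tested.

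The tails of the members were first described by gene. Over all libraries together, with most reads of each gene from KO, the median tail was 131.6 nt for Lin28a, 95.7 nt for L1td1 and 142.2 nt for Trim71, against 102.0 nt for all reads. The interquartile ranges were 73.9, 71.2 and 89.6 nt in the same order, and 75.8 nt for all reads. Single molecules ranged from 26.1 to 293.7 nt for Lin28a, from 16.7 to 270.9 nt for L1td1 and from 36.3 to 402.5 nt for Trim71. The distributions of the 3 genes overlapped broadly.

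Trim71 carried the longest tails of the 3 in 3 of 4 libraries. Its WT medians were 228.2 nt, from the 4 reads of WT 1, and 155.8 nt, and its KO medians were 135.8 and 126.4 nt. These medians were longer than those of 97.8% of genes in WT 2, 85.0% in KO 1 and 89.3% in KO 2, among genes with at least 20 reads in the library. Relative to the median of the tested genes in the same library, Trim71 was longer by 0.57 ± 0.40 on the log2 scale (SD, n = 4), a ratio of 1.49, in 4 of 4 libraries. An exact two-sided sign-flip permutation test over libraries gave p = 0.125, the smallest that 4 libraries allow (adjusted p = 0.375 over the 3 members). Without WT 1 the difference was 0.38.

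Lin28a had median tails of 82.4 nt in WT 1 and 135.6 nt in WT 2. They were 121.5 nt in KO 1 and 150.2 nt in KO 2. WT 1, with 11 reads, was the shortest, and its value was longer than that of only 8.83% of genes, against 89.2% in WT 2, 64.9% in KO 1 and 98.3% in KO 2. Lin28a was therefore longer than the typical gene in 3 of 4 libraries, by 0.18 ± 0.37 (log2, SD, n = 4; exact sign-flip permutation p = 0.375, adjusted p = 0.562). Without WT 1 this was 0.34.

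L1td1, with the most reads, had median tails of 123.2 nt in WT 1 and 100.1 nt in WT 2. They were 95.5 nt in KO 1 and 90.2 nt in KO 2. It was shorter than the typical gene in 3 of 4 libraries and longer in WT 1, by -0.06 ± 0.22 in all (log2, SD, n = 4; exact sign-flip permutation p = 0.625, adjusted p = 0.625). Without WT 1 this was -0.17. The share of genes with a shorter median was 84.1% and 28.0% in the WT libraries and 14.8% and 21.1% in the KO libraries.

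Within libraries, the members were compared in 3 pairs. On the log2 scale Trim71 exceeded L1td1 by 0.89 and 0.64 in the WT libraries and by 0.51 and 0.49 in the KO libraries. The mean was 0.63 ± 0.18 (SD, n = 4), a ratio of 1.55, in the same direction in 4 of 4 libraries (exact sign-flip permutation p = 0.125, the smallest possible; adjusted p = 0.375 over 3 pairs). Lin28a exceeded L1td1 by 0.24 ± 0.57 (SD, n = 4), in 3 of 4 libraries, and the exact permutation p was 0.5 (adjusted p = 0.5). Trim71 exceeded Lin28a by 0.40 ± 0.74 (SD, n = 4), in 3 of 4 libraries (exact permutation p = 0.5, adjusted p = 0.5). WT 1 was the exception in the former pair and KO 2 in the latter. Without WT 1, Lin28a exceeded L1td1 by 0.51 and Trim71 exceeded Lin28a by 0.04. In order of tail length, Trim71 and Lin28a were therefore not separated beyond their spread, nor were Lin28a and L1td1.

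**Figure D4:**
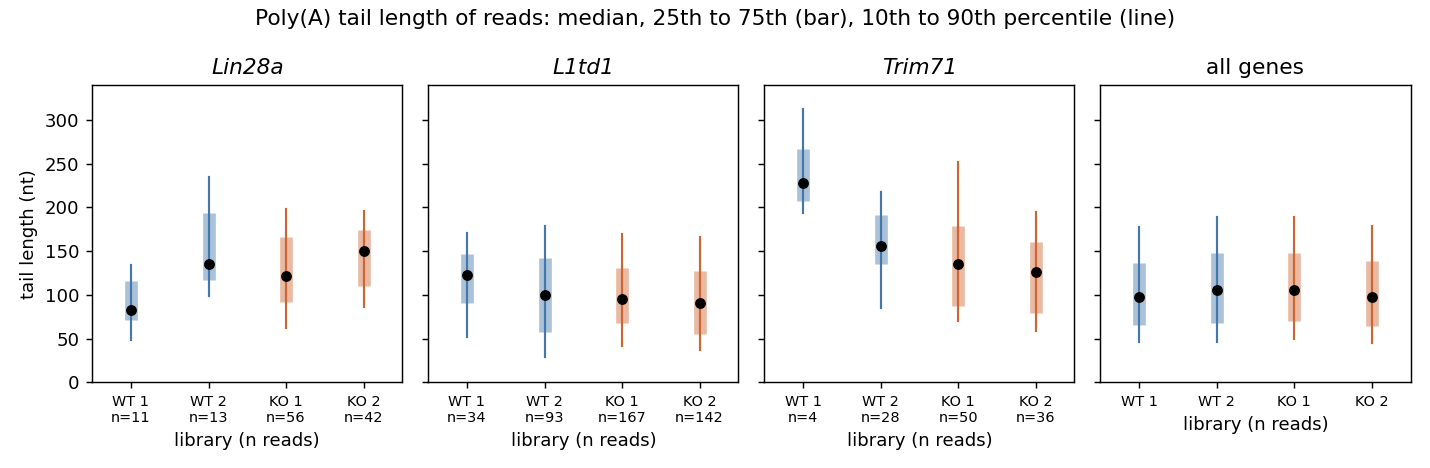
Poly(A) tail length in nt (vertical axis, from 0) of the reads of Lin28a, L1td1, Trim71 and all genes in each library; points are medians, thick bars run from the 25th to the 75th percentile and thin lines from the 10th to the 90th, with the number of reads under each library of the 3 genes. Trim71 medians (126.4 to 228.2 nt) lie above those of L1td1 (90.2 to 123.2 nt) in every library.

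Between genotypes, L1td1 alone had the 20 reads per library needed for the test of tail length across 1935 genes. Its difference, KO against WT, was -0.26 ± 0.15 (log2, SE; limma, adjusted p = 0.9998), from a WT mean of 111.6 nt ± 16.3 (SD, n = 2) to a KO mean of 92.8 nt ± 3.70 (SD, n = 2). Both KO medians lay below both WT medians, as in 11.8% of all genes; no gene was called (0%), and 45 genes had an unadjusted p under 0.05. The change was -0.11 without WT 1 and -0.41 without WT 2. Lin28a and Trim71 had too few WT reads for this test. For Lin28a the KO mean was 135.9 nt ± 20.3 (SD, n = 2), against a WT mean of 109.0 nt ± 37.6 (SD, n = 2). For Trim71 the KO mean was 131.1 nt ± 6.63 (SD, n = 2), against a WT mean of 192.0 nt ± 51.2 (SD, n = 2), and the 228.2 nt of WT 1 rest on 4 molecules. In a fit that left out WT 1, Trim71 had enough reads and a difference of -0.25 ± 0.26 (log2, SE; limma, adjusted p = 0.977).

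The ends of the distributions were compared as shares of reads. The Wilson intervals below cover counting error only, and those over all libraries together leave out the spread between libraries. Short tails under 30 nt were seen in 25 of 436 L1td1 reads, or 5.73% (95% Wilson interval 3.91 to 8.33%), against 2.28% of all reads. They were seen in 1 of 122 Lin28a reads, or 0.820% (0.145 to 4.497%), and in 0 of 118 Trim71 reads, for which 3 reads of the total, taken as the limit that a count of 0 allows, are 2.54% and the Wilson upper bound is 3.15%. By library the L1td1 share was 0 of 34 reads in WT 1 (3 reads of the total are 8.82%, and the Wilson upper bound is 10.2%) and 10.8% in WT 2, and the KO libraries had 4.19% and 5.63%, so it lay above the share of all reads in 3 of 4 libraries. Long tails of 150 nt or more made up 17.9% of L1td1 reads (14.6 to 21.8%), 36.9% of Lin28a reads (28.8 to 45.7%) and 44.9% of Trim71 reads (36.2 to 53.9%), against 21.7% of all reads.

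For Trim71 the long-tail share was 100% of 4 reads in WT 1 and 60.7% in WT 2, against 44.0% in KO 1 and 27.8% in KO 2. The KO libraries were both below the WT libraries, a difference of -44.5 percentage points, or -24.8 without WT 1. With 4 reads in WT 1, Trim71 missed the minimum of 20 reads per library; among the 1935 genes that met it, 13.2% had both KO shares below both WT shares, and without WT 1 the KO shares were both below WT 2 in 43.2% of 2152 genes. For Lin28a the share was 9.09% and 46.2% in the WT libraries, 30.4% and 50.0% in the KO libraries, and the genotypes overlapped. For L1td1 it was 20.6% and 20.4% in the WT libraries, 18.6% and 14.8% in the KO libraries, a difference of -3.83 percentage points, again with both KO shares below both WT shares. Exact two-sided permutation tests gave p = 0.333 for the long tails of Trim71 and of L1td1, the smallest that 2 libraries against 2 allow, and 0.667 for Lin28a; adjusted over the 6 comparisons of members and classes, p was 1 for each. For short tails the genotypes overlapped in each member (exact permutation p = 1), and Trim71 had none in any library.

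By Euclidean distance of log2 median tail length over the 4 libraries, the genes most like L1td1, among 855 genes with at least 50 reads per library, were Phf5a (0.17), Mrpl28 (0.18) and Nop58 (0.18). Phf5a, a splicing factor subunit, had medians of 125.7 and 94.3 nt in the WT libraries and 101.3 and 98.1 nt in the KO libraries. Like L1td1, it was longest in WT 1, a likeness that the choice by these same medians favours. The L1td1 median in WT 1 rests on 34 reads, fewer than the 50 required of the genes compared. Mrpl28 encodes a mitochondrial ribosomal protein and Nop58 a core protein of box C/D small nucleolar particles.

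The genes around the members were examined in 4 lists. Of 20 genes of let-7 maturation and action, 9 had enough reads for the test of read number, none passed (limma), and their median log2 change was 0.52, with 8 of 9 positive, against -0.01 and 49.4% for all genes. Without WT 1 the median was 0.02, and Tnrc6c, a scaffold of microRNA silencing, passed (limma, log2 change 2.32, adjusted p = 0.0345); with all libraries it had 1.54 (limma, adjusted p = 0.532), and it had 7 and 2 reads in WT and 30 and 11 in KO. The 3 genes with the most reads were Hnrnpa1 (0.05), an RNA-binding protein that can bind let-7 precursors, Tarbp2 (-0.23), the Dicer partner, and Syncrip (0.54). Of these, Syncrip had a tail length change of -0.54 (limma, adjusted p = 0.9998), Hnrnpa1 had 0.23 and Tarbp2 -0.12.

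Of 19 let-7 targets, 11 were tested for read number and none passed (limma). The median log2 change was 0.29, with 6 of 11 positive, and it was 0.33 without WT 1. With all libraries 3 had an unadjusted p under 0.05, all higher in KO, against 5.17% of all genes in that direction. Without WT 1, at the same unadjusted limit, 1 was higher (5.54% of all genes) and 2 were lower (5.46% of all genes). The 2 lower genes were Igf2bp2 and Ccnd1, a cyclin, both named after their values were seen. The list as a whole did not turn, as 7 of 11 genes had a positive log2 change without WT 1. Igf2bp1, an RNA-binding protein of embryonic cells, had 40.9 RPM in WT 1 and 85.4 RPM in WT 2, against 134.7 RPM in KO 1 and 153.5 RPM in KO 2, and its log2 change was 1.15 ± 0.35 (SE; limma, adjusted p = 0.204). Its libraries did not overlap, with KO higher, as in 20% of all genes; without WT 1 its change was 0.70. Igf2bp2, its paralog, had 27.3 and 39.9 RPM in the WT libraries and 22.0 and 6.98 RPM in the KO libraries, a log2 change of -1.20 (limma, adjusted p = 0.504). Hmga1, a chromatin protein, had 188.8 RPM in WT 1 and 82.6 RPM in WT 2, against 222.5 RPM in KO 1 and 286.0 RPM in KO 2, a log2 change of 0.87 (limma, adjusted p = 0.410). Here WT 2 was the low library, and without WT 1 the change was 1.55 and passed (limma, adjusted p = 0.00354). Hras, with the third most reads of the list, had 0.33.

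Of 8 published Trim71 targets, Cdkn1a alone had enough reads. This inhibitor of the cell cycle had 29.6 and 51.3 RPM in the WT libraries and 27.8 and 23.3 RPM in the KO libraries, and a log2 change of -0.68 ± 0.44 (SE; limma, adjusted p = 0.605). Both KO libraries were below both WT libraries, as in 20.5% of all genes.

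Of 15 other RNA-binding proteins of stem cells, 9 were tested for read number and none passed (limma). The median log2 change was 0.40, with 7 of 9 positive, and 0.11 without WT 1. In 8 of the 9, WT 1 was lower than WT 2, with a median log2 difference of -0.55, against 49.5% and 0.01 for all genes. Dppa5a, a KH domain protein, had -0.34, and Ybx1, a cold shock domain protein as Lin28a is, had 0.12. Celf1 had the one unadjusted p under 0.05 of this list and is named after its values were seen; its log2 change was 1.30, and 0.04 without WT 1. In tail length, 3 genes of the let-7 maturation list, 2 let-7 targets and 4 of the other RNA-binding proteins were tested, with medians of -0.12, 0.18 and 0.05, and none passed (limma).

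**Figure D5:**
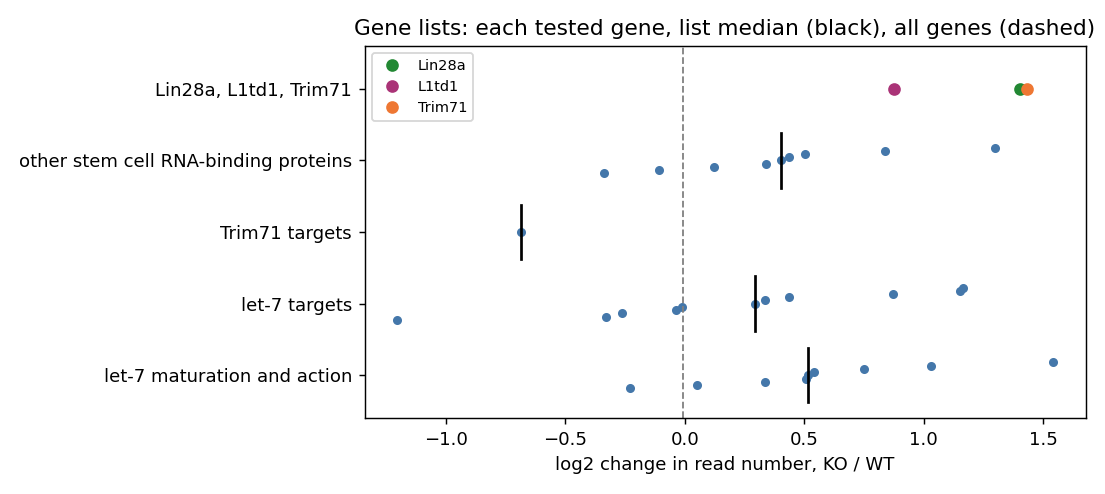
Log2 change in read number (KO against WT, horizontal axis) of each tested gene of the 4 lists (blue points; black lines are list medians) and of Lin28a, L1td1 and Trim71; the dashed line is the median of all tested genes, -0.01. The list medians are 0.52, 0.29, -0.68 (1 gene) and 0.40, and the 3 members lie at 0.87 to 1.43.

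Markers of cell state were set beside these values. The summed level of the 17 pluripotency genes was 5767 RPM in WT 1 and 5400 RPM in WT 2, against 4588 RPM in KO 1 and 4086 RPM in KO 2. Of 16 tested, 3 had a positive log2 change and the median was -0.34 (-0.31 without WT 1), with none passing (limma). With all libraries 4 of the 16 had an unadjusted p under 0.05 (limma), all lower in KO. Of all 4815 genes tested, 498 had such a p in either direction. The 10 primitive endoderm genes had sums of 213.9 and 307.6 RPM for WT, against 343.9 and 420.9 RPM for KO. Most of this was Sparc, with 172.9 and 262.0 RPM for WT, against 310.3 and 395.3 RPM for KO. The rest of the list together was lower in both KO libraries than in both WT libraries, as were 20.5% of single tested genes. No gene of this rest had enough reads for the test. Of the 10 genes, 7 had reads, while Sox17, Dab2 and Pdgfra had none. Of 7 genes of epiblast priming, 4 occurred in the table, with sums of 52.3 and 37.0 RPM for WT, against 43.9 and 46.5 RPM for KO, and Fgf5, Zic2 and T had no read. The one that was tested was Dnmt3b, a DNA methyltransferase that rises on priming, with a log2 change of 1.40 (limma, adjusted p = 0.470). It had 13.7 and 11.4 RPM for WT, against 36.6 and 41.9 RPM for KO. The other priming genes with reads went the other way: together they were lower in both KO libraries than in both WT libraries. Among single tested genes, 20.5% had this arrangement. None of these other priming genes had enough reads for the test. The 8 genes of 2-cell-like cells had sums of 6.83 and 31.3 RPM for WT, against 2.93 and 0 RPM for KO. For scale, 3 reads are 6.83 and 8.54 RPM in the WT libraries and 4.39 and 6.98 RPM in the KO libraries. In all libraries but WT 2 the sum was thus 3 reads or fewer, and none of these genes had enough reads for the test. The part of these differences in the read number of Lin28a was not tested.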

How the data were processed

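Per the labels' protocols, RNA selected on oligo(dT) beads was prepared with the SQK-RNA002 kit and DeePlexiCon adapters for a MinION. The submitters' processing notes name minimap2 2.20; the tail estimator, genome build and read filters are not given in the sources used here. The authors' deposited table has 1 row per read with a transcript, a symbol and a tail length in nt. It was used as deposited, without the 3 reads of length 0. Tail length was tested with limma 3.58.1 (R 4.3.3) on log2 medians, with a minimum of 20 reads in each library. Reads per gene were counted here and tested with voom, with 0.5 reads added. Both tests were tried on simulated data. P-values were adjusted by Benjamini-Hochberg over all genes tested. Python 3.11.15, pandas 2.3.3 and scipy 1.17.1 were used.

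The members and lists were chosen with earlier results of these data known. Named genes are the members, Mov10, Lin28b, the 3 tested genes with the most reads in each list, list genes past the threshold, and the 3 genes nearest to L1td1 in tail length. Some list genes are not reported here by name. Same-numbered libraries did not deviate together (correlation over genes 0.0135 for tail length and 0.0155 for read number), and the labels give no pairing. Alternatives changed the tail summary, read minimum, centring, weights, scaling, model, class limits and replicate block, or left out each library; a minimum of 3 reads was added after seeing the data.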

Additional observations from a re-analysis of the deposited data

How the results depend on the processing

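The members' read number changes kept their direction when scaled by total reads, where the median over all genes was 0.11 (log2) and the members had 1.54 (Lin28a), 1.00 (L1td1) and 1.66 (Trim71), with limma trend on log2 RPM, and without a filter on low read numbers; none passed there. With a mean of at least 50 reads L1td1 alone could be tested, with 0.93, and it did not pass. With the replicate number as a block, the changes were 1.40, 0.82 and 0.80 and none passed, while 66 genes were called. The number of genes called for read number was 96 without a filter on low read numbers, 7 under scaling by total reads (6 higher and 1 lower in KO), and 0 to 451 with a library left out (93 without WT 1, 451 without WT 2). For tail length it was 1 with at least 10 reads per library and 0 to 2 with a library left out (2 without WT 2). With a library left out, the change in read number ranged from -0.0728 (without WT 1) to 2.74 (without WT 2) for Trim71. The cause was not tested.

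Tail differences between members and against all genes kept their direction with the mean of log2 tail length and with each library left out. Some came close to none: 0.04 for Trim71 minus Lin28a without WT 1, and -0.01 for L1td1 minus all genes without KO 1. For Trim71 minus L1td1 and minus all genes, the sign was the same in 4 of 4 libraries, so leaving out a library could not reverse it. The shares of short and long tails did not all keep their direction. With limits of 50 and 120 nt Lin28a had a difference of -8.77 percentage points in short tails and L1td1 one of 2.58. With limits of 20 and 200 nt it was 0.713 for short tails of L1td1 and -6.86 for long tails of Lin28a. With a library left out, it ranged from -5.97 (without WT 1) to 31.1 (without WT 2) for long tails of Lin28a. For short tails of L1td1 it ranged from -5.84 (without WT 1) to 4.91 (without WT 2), and without KO 1 it was 0.257. The 4 Trim71 and 11 Lin28a reads of WT 1 limit what can be said of WT tails.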
